A study of Homo sapiens with 36 samples.

Results

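The genes described here are 10 genes of the melanocyte lineage, MITF, SOX10, PAX3, DCT, TYR, TYRP1, PMEL, MLANA, OCA2 and TRPM1, taken by symbol from the 60656 genes in each of 36 RNA-seq libraries. The libraries came from 3 human lines of melanoma with a BRAF mutation, A375TR-NR2F1, 1205LuTR-NR2F1 and WM793TR-NR2F1 (A375, 1205Lu and WM793 below), and each line was measured in 4 treatments with 3 replicates each. The treatments were DMSO (the vehicle), DMSO + DOX, BRAFi + MEKi and BRAFi + MEKi + DOX. BRAFi was PLX4720 at 1 µM, MEKi was PD0325901 at 35 nM and DOX was doxycycline at 100 ng/mL. Cells spent 24 h with or without DOX and then 72 h in the treatment. All lines, controls included, carried a Tet repressor and a lentiviral NR2F1 cDNA under a DOX-inducible promoter, in drug-selected pools of cells. NR2F1 is an orphan nuclear receptor linked to dormancy in cancer, and the question of the design was how its overexpression changes the response to the inhibitors. The study's methods do not set a group apart in describing the pretreatment with DOX, whereas the labels give it as minus or plus. Since every culture given DOX also carried the cDNA, what DOX does by itself and what NR2F1 does cannot be told apart. 1205Lu is a metastatic derivative of WM793, and these lines were grown in a different medium from A375, so that line and medium cannot be told apart either.

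MITF, a basic helix-loop-helix leucine zipper factor, is the central transcription factor of melanocytes and binds E-boxes upstream of pigment genes. SOX10, an HMG-box factor of the neural crest, and PAX3, a paired-box factor, lie upstream of MITF, and SOX10 also acts directly on DCT. TYR (tyrosinase), TYRP1 and DCT (dopachrome tautomerase) are related enzymes that turn tyrosine into melanin inside the melanosome. PMEL forms the fibrils on which melanin is laid down, MLANA (Melan-A) is a melanosomal protein used to recognize melanocytic tumors, OCA2 is an ion transport protein that sets melanosomal pH, and TRPM1 is a cation channel whose gene holds the microRNA gene MIR211 in an intron. In BRAF-mutant melanoma, blocking BRAF and MEK is known to raise melanocytic differentiation genes in some lines, whereas other lines lose MITF and move toward an undifferentiated state.

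In GRCh38, with the gene bounds of GENCODE 44, MITF lies on chromosome 3 from 69739456 to 69968336 (plus strand), SOX10 on chromosome 22 from 37970686 to 37987422 (minus) and PAX3 on chromosome 2 from 222199887 to 222298998 (minus). The enzyme genes are DCT on chromosome 13 from 94436811 to 94479682 (minus), TYR on chromosome 11 from 89177875 to 89295759 (plus) and TYRP1 on chromosome 9 from 12685439 to 12710285 (plus). PMEL lies on chromosome 12 from 55954105 to 55973317 (minus), MLANA on chromosome 9 from 5890889 to 5910606 (plus), OCA2 on chromosome 15 from 27754875 to 28099315 (minus) and TRPM1 on chromosome 15 from 31001065 to 31161160 (minus). All are protein-coding genes, and a value sums the reads of all exons of a gene.

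The start regions of DCT, TYR, TYRP1 and MITF are shown because these members are targets and the factor of one regulatory step. The sequences are RefSeq promoter windows of 300 bases, 250 before and 50 after a transcript start, in build GRCh38.p14, 5′ to 3′ on the strand of the gene. The RefSeq table held 12 windows for 8 of the 10 members. Capitals mark CATGTG on either strand (CACATG in the printed strand) and, in the MITF window, TGACGTCA, the cAMP response element. The MITF window is the one at the start of the melanocyte isoform.
DCT, chr13:94479633-94479932, minus strand: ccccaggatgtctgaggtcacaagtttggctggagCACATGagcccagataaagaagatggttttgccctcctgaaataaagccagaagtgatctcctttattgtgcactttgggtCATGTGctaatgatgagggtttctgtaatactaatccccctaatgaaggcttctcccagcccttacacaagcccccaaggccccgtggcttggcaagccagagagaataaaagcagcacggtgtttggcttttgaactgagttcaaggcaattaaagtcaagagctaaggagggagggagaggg
TYR, chr11:89177625-89177924, plus strand: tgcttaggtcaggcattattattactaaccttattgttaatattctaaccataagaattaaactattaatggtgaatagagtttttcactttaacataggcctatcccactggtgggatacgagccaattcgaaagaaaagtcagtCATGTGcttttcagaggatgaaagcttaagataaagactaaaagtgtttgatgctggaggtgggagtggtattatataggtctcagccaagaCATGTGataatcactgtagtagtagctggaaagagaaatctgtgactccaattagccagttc
TYRP1, chr9:12693135-12693434, plus strand: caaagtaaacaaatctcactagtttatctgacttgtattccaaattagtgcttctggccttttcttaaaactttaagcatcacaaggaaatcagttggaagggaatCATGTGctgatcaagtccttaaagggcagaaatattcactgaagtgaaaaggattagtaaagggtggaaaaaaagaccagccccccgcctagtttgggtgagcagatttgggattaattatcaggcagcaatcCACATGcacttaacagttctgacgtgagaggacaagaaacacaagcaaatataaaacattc
MITF, chr3:69936342-69936641, plus strand: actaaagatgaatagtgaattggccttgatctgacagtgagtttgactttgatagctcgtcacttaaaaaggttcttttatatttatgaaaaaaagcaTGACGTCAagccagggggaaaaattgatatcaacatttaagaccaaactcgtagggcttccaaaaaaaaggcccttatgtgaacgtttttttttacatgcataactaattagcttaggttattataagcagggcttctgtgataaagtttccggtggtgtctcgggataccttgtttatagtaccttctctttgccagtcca

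Each of the printed DCT, TYR and TYRP1 windows held CATGTG at 2 places, and 11.1% of all 35116 promoter windows held it at least once on either strand. The longer form TCATGTGCT, which was looked for after the sequences had been read and which contains CATGTG, occurred at 2 places in the DCT window and at 1 place each in the TYR and TYRP1 windows, and 0.216% of all windows held it. Counted from the start at 0, the first bases of the longer form lay at −217 and −135 in the DCT window, at −105 in the TYR window and at −145 in the TYRP1 window. OCA2 held CATGTG at 1 place, as did both TRPM1 windows, whereas the windows of MLANA, PAX3 and MITF and the other DCT window held none. The palindrome CACGTG (7.26% of all windows) was in no member window. TGACGTCA, present in 1.85% of all windows, was found in the MITF window printed above, at −152, and in no other member window. Of the SOX motifs, ACAAAG (16.1% of all windows) was in 1 window each of MITF, OCA2 and TRPM1, and ACAATG (10.8%) in 1 window of MITF. AGGTCA, the core letters that nuclear receptors read (13.8% of all windows), was in 1 window each of MITF, TYR and TRPM1 and in both DCT windows. These matches are a description of letters.

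The deposited value of a gene, called its normalized expression here, is an estimated read count scaled by the authors to a common level over the 36 libraries. Totals of these values ranged from 27027824 to 34621958 per library. The commonest value among genes near 0, which stands for about 1 read, ranged from 0.490 to 5.09 and was highest in WM793 DMSO replicate 1, for which it implied about 6580536 reads against 23141647 to 60457164 in the other libraries. NR2F1 was at 321 to 6273 in libraries without DOX and at 9155 to 76313 in libraries with DOX. In 1205Lu, NR2F1 was 6273, 2182 and 2327 in DMSO and 20699, 9155 and 9270 in DMSO + DOX, a difference of 1.93 on the log2(value + 1) scale that did not pass the test, so that line was the least induced without inhibitors. DUSP6, a phosphatase gene switched on by ERK, was at 2661 to 7182 without inhibitors and at 74.6 to 1693 with BRAFi + MEKi.

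**Figure D1:**
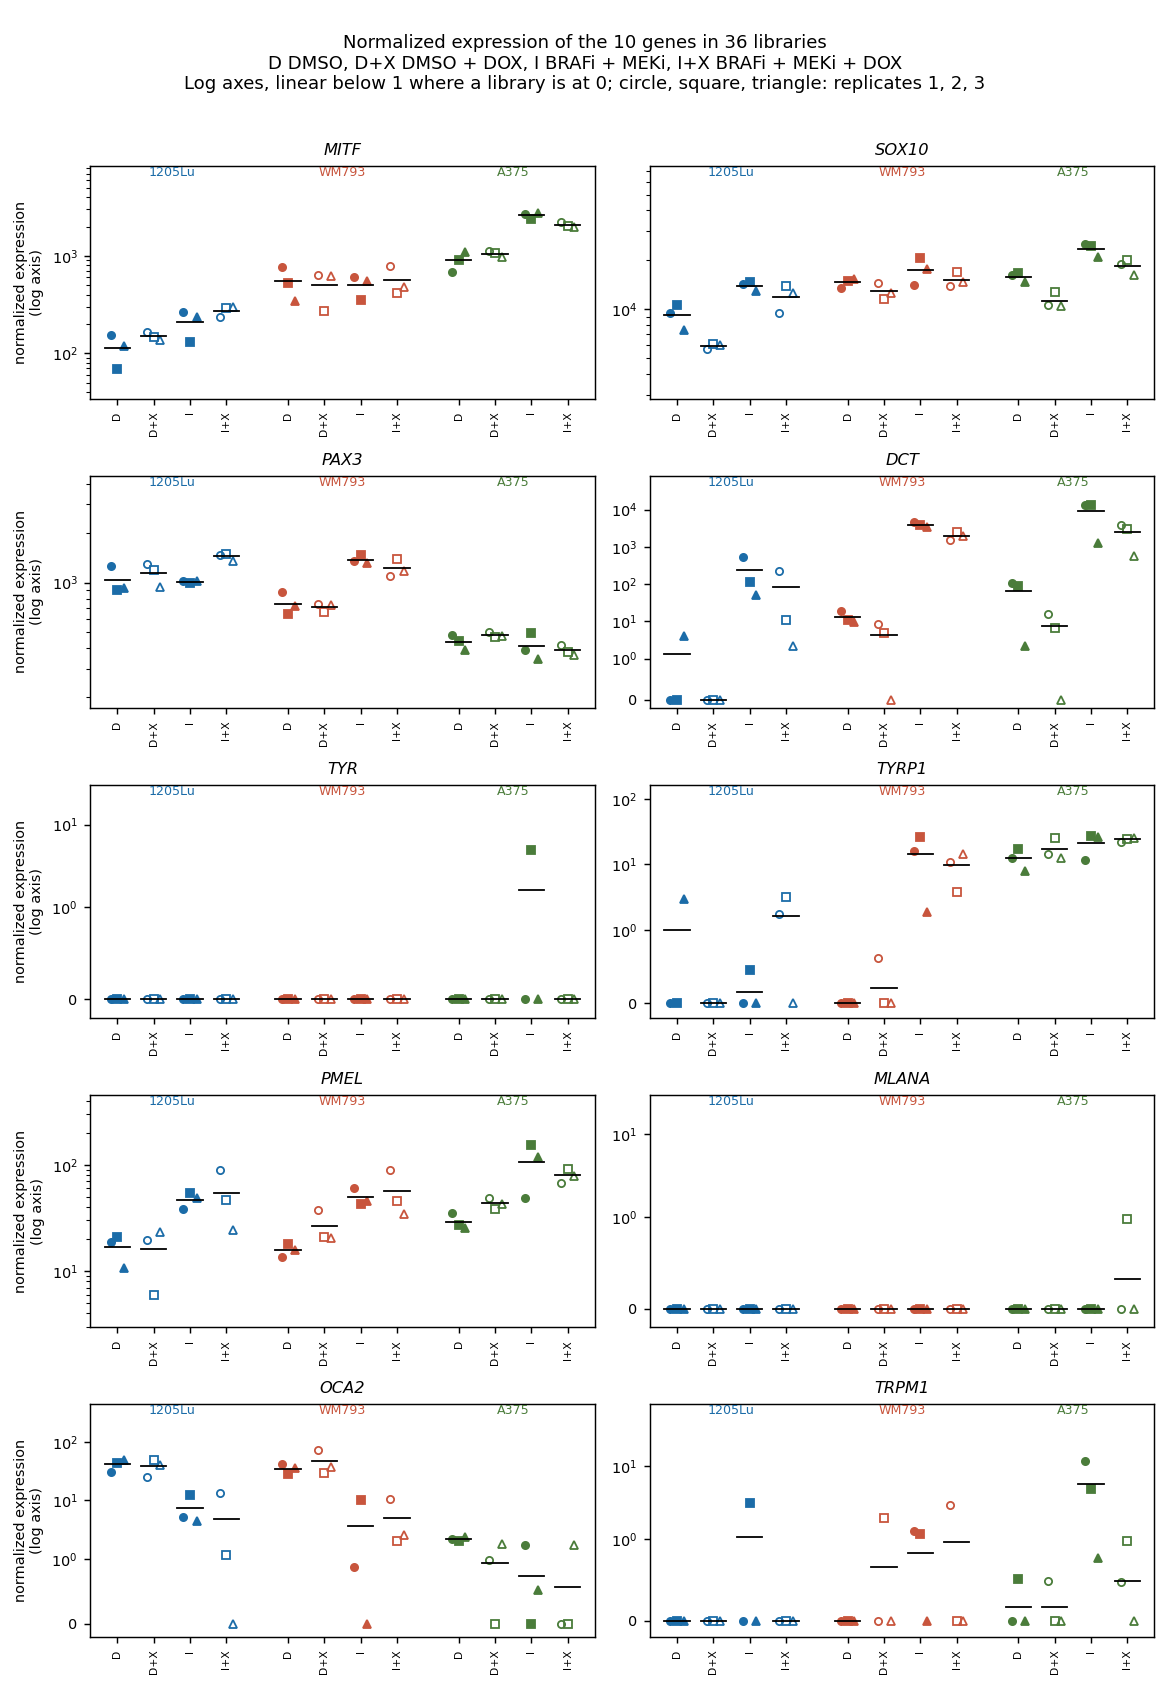
Normalized expression of the 10 genes in each of the 36 libraries, 1 panel per gene, on log axes that are linear below 1 where a library was at 0. Circles, squares and triangles are replicates 1, 2 and 3, open symbols had DOX, and bars are group means of 3 libraries. DCT stood far higher in BRAFi + MEKi than in DMSO in each line. SOX10 stayed within 5684 to 24854, and TYR and MLANA were above 0 in 1 library each.

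Before any inhibitor, the lines differed in the factors and in some of the pigment genes. MITF was lowest in 1205Lu, with 155, 68.3 and 119 in the DMSO libraries. It was 769, 526 and 345 in WM793 DMSO and 685, 905 and 1103 in A375 DMSO. The 1205Lu libraries lay below all libraries of the other lines, whereas WM793 and A375 overlapped. On the log2(value + 1) scale MITF in 1205Lu was 2.25 lower than in WM793 (SE 0.32, adjusted p = 1.29e-06, limma) and 3.02 lower than in A375 (SE 0.32, adjusted p = 2.72e-09). The difference of WM793 from A375 (−0.76, adjusted p = 0.0484) lost its call without any of 4 of the 6 libraries, replicates 2 and 3 of both lines, with an adjusted p of up to 0.283, and at a pseudocount of 0.1, with no filter, with no trend or in a fit of these groups alone (up to 0.0733).

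SOX10 was 9510, 10572 and 7464 in 1205Lu DMSO, 13495, 14819 and 15326 in WM793 DMSO and 16198, 16487 and 14722 in A375 DMSO. It was lower in 1205Lu than in WM793 (−0.68, SE 0.14, adjusted p = 0.000364) and A375 (−0.80, adjusted p = 2.47e-05), and the difference of WM793 from A375 was not called (−0.12, 95% interval −0.41 to 0.17). PAX3 had the opposite order, with 1269.7, 904 and 928 in 1205Lu, 872, 645 and 716 in WM793 and 479.5, 441 and 387 in A375. PAX3 was 1.23 higher in 1205Lu (adjusted p = 2.5e-08) and 0.77 higher in WM793 (adjusted p = 5.75e-05) than in A375. The smaller difference of 1205Lu from WM793 (0.47, adjusted p = 0.0131) was lost without 1205Lu replicate 1 or WM793 replicate 2, with an adjusted p of up to 0.136, and in a fit of these groups alone (adjusted p = 0.105).

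Per kilobase of exon (the union of exons of all transcripts), SOX10 had the highest level of the 10 genes in each of the 12 groups, from 1229.9 normalized units per kb in 1205Lu DMSO + DOX to 4839 in A375 BRAFi + MEKi. MITF in the DMSO groups was at 15.4, 73.7 and 121 per kb in 1205Lu, WM793 and A375, and PAX3 at 130.2, 93.7 and 54.9. MITF therefore ranked after PAX3 per length in 1205Lu and WM793 and before it in A375. The SOX10 exons overlap those of POLR2F, an RNA polymerase II subunit gene on the other strand, and the library kit did not mark strand. POLR2F averaged 1250.2 to 2587 in the groups, below SOX10 in each of them.

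The pigment genes were low or at 0 in DMSO. DCT was 0, 0 and 4.0 in 1205Lu, 19.4, 11.2 and 9.43 in WM793 and 105, 90.7 and 2.23 in A375. OCA2 was 30.3, 43.6 and 49.1 in 1205Lu and 41.0, 27.8 and 35.4 in WM793 against 2.21, 2.05 and 2.40 in A375, a difference from A375 of 3.68 (adjusted p = 0.000196) and 3.46 (adjusted p = 0.000408). TYRP1 went the other way, with 12.5, 16.9 and 7.84 in A375 against 0, 0 and 3.01 in 1205Lu and 0 in each WM793 library. It was lower than in A375 by a difference of −3.02 in 1205Lu (adjusted p = 0.0002) and of −3.69 in WM793 (adjusted p = 1.46e-05). PMEL was 10.7 to 20.8 in 1205Lu, 13.6 to 18 in WM793 and 25.3 to 35.0 in A375, and none of these differences passed the test. DCT was lower in 1205Lu than in A375 (−4.20, adjusted p = 0.00861), but their libraries overlapped and the call was lost without A375 replicate 1 or 2, with an adjusted p of up to 0.0638. Its difference between 1205Lu and WM793 (adjusted p = 0.0832) was called at a pseudocount of 0.1 or in a fit of these groups alone, over alternatives of 0.0166 to 0.113. In all, 3 of 9 members tested differed between 1205Lu and WM793 (30.7% of all 26779 genes tested), 6 of 9 between 1205Lu and A375 (46.8%) and 4 of 9 between WM793 and A375 (47.5%).

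TYR and MLANA were listed at 0 in 35 of 36 libraries each. The exceptions were A375 BRAFi + MEKi replicate 2 for TYR, at 4.90, and A375 BRAFi + MEKi + DOX replicate 2 for MLANA, at 0.974. The labelled cell type is melanoma, and of its defining melanocytic markers SOX10, MITF and PAX3 were above 0 in all 36 libraries and PMEL at 5.90 to 153, whereas TYR and MLANA were absent from nearly all. MLANA passed the filter on low values in no line, and TYR only in A375. The other members tested were 8 in 1205Lu, 7 in WM793 (TRPM1 did not pass) and 9 in A375, counting TYR.

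BRAFi + MEKi raised DCT in every line, more than any other member. DCT was 537, 116 and 50.9 in 1205Lu BRAFi + MEKi against 0, 0 and 4.0 in DMSO. It was 4742, 3844 and 3331 in WM793 BRAFi + MEKi against 19.4, 11.2 and 9.43. It was 13703, 12968 and 1247 in A375 BRAFi + MEKi against 105, 90.7 and 2.23. The groups did not overlap in any line, and replicate 3 of A375 was lower than the other replicates by a wide margin in both treatments. The ratio of group means was 297 in WM793 and 141 in A375. On the log2(value + 1) scale the difference was 6.44 in 1205Lu (SE 1.277, adjusted p = 0.00178), 8.16 in WM793 (SE 0.61, adjusted p = 3.78e-07) and 7.58 in A375 (SE 1.36, adjusted p = 0.000534). Per kb, DCT moved from rank 6 to rank 2 of the 10 genes in WM793 and from rank 4 to rank 2 in A375, where it reached 1234 per kb against 4839 for SOX10. As in any bulk measurement, a change in the share of cells that express DCT and a change per cell cannot be told apart.

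The libraries with DOX, none of which is shared with this comparison, gave the same gene the largest difference again. DCT was 0 in each 1205Lu DMSO + DOX library and 232, 11.0 and 2.13 with BRAFi + MEKi + DOX. It was 8.27, 5.01 and 0 against 1518, 2467 and 1981 in WM793, and 15.3, 6.73 and 0 against 3854, 3003 and 569 in A375. No groups overlapped. The difference was 9.0 in WM793 (SE 0.61, adjusted p = 3.23e-07) and 8.55 in A375 (SE 1.36, adjusted p = 0.000336). In 1205Lu the adjusted p was 0.0204, with no fold given against libraries at 0, and the call was lost without any one of the DMSO + DOX libraries or without BRAFi + MEKi + DOX replicate 1, with an adjusted p of up to 0.0679.

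The other tyrosinase relatives did not follow DCT across the lines. TYRP1 was 15.8, 26.0 and 1.92 in WM793 BRAFi + MEKi against 0 in each DMSO library, an adjusted p of 0.00259. It was 11.6, 26.8 and 26.0 in A375 BRAFi + MEKi, which overlapped DMSO (difference 0.71, 95% interval −0.26 to 1.68), and 0, 0.450 and 0 in 1205Lu. With DOX, TYRP1 was 11.1, 3.84 and 14.2 in WM793 with inhibitors against 0.614, 0 and 0 without (adjusted p = 0.00712). The response of TYRP1 in WM793 differed from that in 1205Lu (−3.94 for 1205Lu against WM793, SE 0.90, adjusted p = 0.00262) and from that in A375 (2.74, SE 0.90, adjusted p = 0.0257). The latter was lost without any of 4 of the 12 libraries, with an adjusted p of up to 0.102: A375 DMSO replicate 2, A375 BRAFi + MEKi replicate 1 and WM793 BRAFi + MEKi replicates 1 and 2. It was also lost in a fit of these groups alone (adjusted p = 0.0688). TYRP1 exons overlap those of the antisense RNA LURAP1L-AS1, which was at 10.3 to 19.4 in WM793 BRAFi + MEKi and at 0, 20.2 and 25.6 in WM793 DMSO. The DCT responses, by contrast, were not shown to differ between lines, with wide intervals (1205Lu against WM793 −1.72, −5.50 to 2.06).

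MITF itself responded in A375. It was 2665, 2391 and 2785 with BRAFi + MEKi against 685, 905 and 1103 in DMSO, groups that did not overlap. The difference was 1.56 (SE 0.15, adjusted p = 2.37e-06), a ratio of means of 2.91. With DOX it was 2249, 2007 and 1994 with inhibitors against 1124, 1065 and 979 (0.98, SE 0.15, adjusted p = 0.000236). In WM793 MITF was 601, 353 and 556 with BRAFi + MEKi, inside the range of DMSO, with a difference of −0.08 and a 95% interval of −0.87 to 0.71. Its response in WM793 was smaller than in A375 (−1.64, SE 0.45, adjusted p = 0.00767). DCT thus rose in WM793, where the libraries gave no detectable change of MITF.

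In 1205Lu MITF was 265, 131 and 234 with BRAFi + MEKi against 155, 68.3 and 119 in DMSO. Replicate 2 was the lowest in both, and the groups overlapped. The difference was 0.89 (SE 0.32) with an adjusted p of 0.0492, and it lost its call without any of 4 of the 6 libraries, DMSO replicates 2 and 3 and BRAFi + MEKi replicates 1 and 3, with an adjusted p of up to 0.202, and at a pseudocount of 0.1, with no filter, with no trend or in a fit of these groups alone (up to 0.0971). With DOX the difference was 0.87 (adjusted p = 0.0572) between groups that did not overlap, 236, 289 and 298 with inhibitors against 164, 146 and 137. It was called in 4 of 7 alternatives, which were the rescaling of libraries to an equal total, array weights (which give discordant libraries less weight), a replicate block and a fit of these groups alone, and its adjusted p was 0.0043 to 0.0785 over the 7.

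SOX10 was 24854, 24386 and 20819 in A375 BRAFi + MEKi, above the DMSO libraries (0.56, SE 0.11, adjusted p = 0.00136, ratio of means 1.48). In 1205Lu it was 14229, 14590 and 12910 with BRAFi + MEKi, again above DMSO (0.61, SE 0.17, adjusted p = 0.0122), a call lost without DMSO replicate 3 (adjusted p = 0.0631). In WM793 it was 14032, 20596 and 17678, which overlapped DMSO (0.25, adjusted p = 0.19), and was called higher when libraries were rescaled to the same total (adjusted p = 0.0163) or without BRAFi + MEKi replicate 1 (adjusted p = 0.0333). With DOX in both groups SOX10 was again higher with inhibitors in 1205Lu, by a difference of 0.99 (adjusted p = 0.000655), and in A375, by 0.70 (adjusted p = 0.000394), while the value for WM793 was 0.23 (adjusted p = 0.232, and 0.0309 when rescaled). SOX10 therefore rose with the inhibitors in 1205Lu and A375, by less than the smallest change of DCT. POLR2F on the other strand was 1445.8 to 1653 in 1205Lu BRAFi + MEKi and 2431 to 2537 in A375 BRAFi + MEKi, against 1214 to 1517 and 2523 to 2655 in DMSO.

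PAX3 responded in WM793 and there rose: it was 1354, 1467 and 1308 with BRAFi + MEKi against 872, 645 and 716 in DMSO (0.90, SE 0.14, adjusted p = 0.000171). With DOX it was 1102, 1397 and 1169 against 746, 662 and 734 (0.77, adjusted p = 0.000704). In 1205Lu it was 1024, 998 and 1021 with BRAFi + MEKi, within the DMSO range, and in A375 387, 495 and 344. With DOX in 1205Lu the difference of PAX3 was called with array weights (adjusted p = 0.0267, against 0.128). The response in WM793 was larger than in 1205Lu (adjusted p = 0.00258) and larger than in A375 (adjusted p = 0.000566), while the response of SOX10 was not shown to differ between any pair of lines.

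PMEL was 60.0, 43.2 and 45.8 in WM793 BRAFi + MEKi against 13.6, 18 and 15.7 in DMSO (1.59, SE 0.44, adjusted p = 0.0115), and 48.5, 153 and 118 in A375 against 35.0, 26.9 and 25.3 (1.70, SE 0.37, adjusted p = 0.00249). In 1205Lu it was 38.8, 54.0 and 48.3 against 19.0, 20.8 and 10.7, groups that did not overlap, at 1.47 with an adjusted p of 0.0673, which passed with array weights or in a fit of these groups alone (0.0265 to 0.096 over the alternatives). With DOX the difference was called in 1205Lu alone (1.67, adjusted p = 0.0432), and was lost without DMSO + DOX replicate 1 or 2 or BRAFi + MEKi + DOX replicate 1 or 2, with an adjusted p of up to 0.184, or with no filter, with no trend or in a fit of these groups alone (up to 0.0949). In the other lines it was 1.02 (adjusted p = 0.0951) and 0.85 (adjusted p = 0.102). PMEL exons overlap those of CDK2, a cell cycle kinase gene on the other strand, which was many times more abundant, at 450.3 to 3642 over the libraries against 5.90 to 153 for PMEL. CDK2 averaged 2168 in 1205Lu DMSO and 825 with BRAFi + MEKi, and 3432 and 1184 in A375. In WM793 it was 1731 to 2138 in DMSO and 1255 to 1751 with BRAFi + MEKi, which overlapped. Among the DMSO groups A375 had the highest mean of both genes, and the part of CDK2 in the PMEL values was not tested.

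OCA2 was the member that fell. It was 5.17, 12.4 and 4.51 in 1205Lu BRAFi + MEKi against 30.3, 43.6 and 49.1 in DMSO, and 0.878, 10.1 and 0 in WM793 against 41.0, 27.8 and 35.4. The differences were −2.42 (SE 0.79, adjusted p = 0.0328) and −3.68 (SE 0.82, adjusted p = 0.00286), with no overlap. With DOX they were −3.58 (adjusted p = 0.0044) and −3.15 (adjusted p = 0.00907). The call in 1205Lu without DOX was lost without any of 5 of the 6 libraries, all but BRAFi + MEKi replicate 2, with an adjusted p of up to 0.105, and also at a pseudocount of 0.1 or with no trend (up to 0.149). The call in WM793 with DOX was lost at a pseudocount of 0.1 (adjusted p = 0.0613). In A375, where OCA2 was at 2.05 to 2.40 in DMSO, it was 1.70, 0 and 0.517 with BRAFi + MEKi and the difference (−1.01, adjusted p = 0.185) was not called. OCA2 and DCT thus moved in opposite directions in 1205Lu and WM793.

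TRPM1 was at 0 in 24 of 36 libraries. It was 11.5, 4.86 and 0.773 in A375 BRAFi + MEKi against 0, 0.513 and 0 in DMSO (2.14, SE 0.63, adjusted p = 0.0149), which rested on BRAFi + MEKi replicate 1, since the adjusted p was 0.0733 when that library was left out. With DOX it was 0.475, 0.977 and 0 with inhibitors against 0.490, 0 and 0, and no difference was called. In 1205Lu and WM793 the highest TRPM1 value was 3.16.

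**Figure D2:**
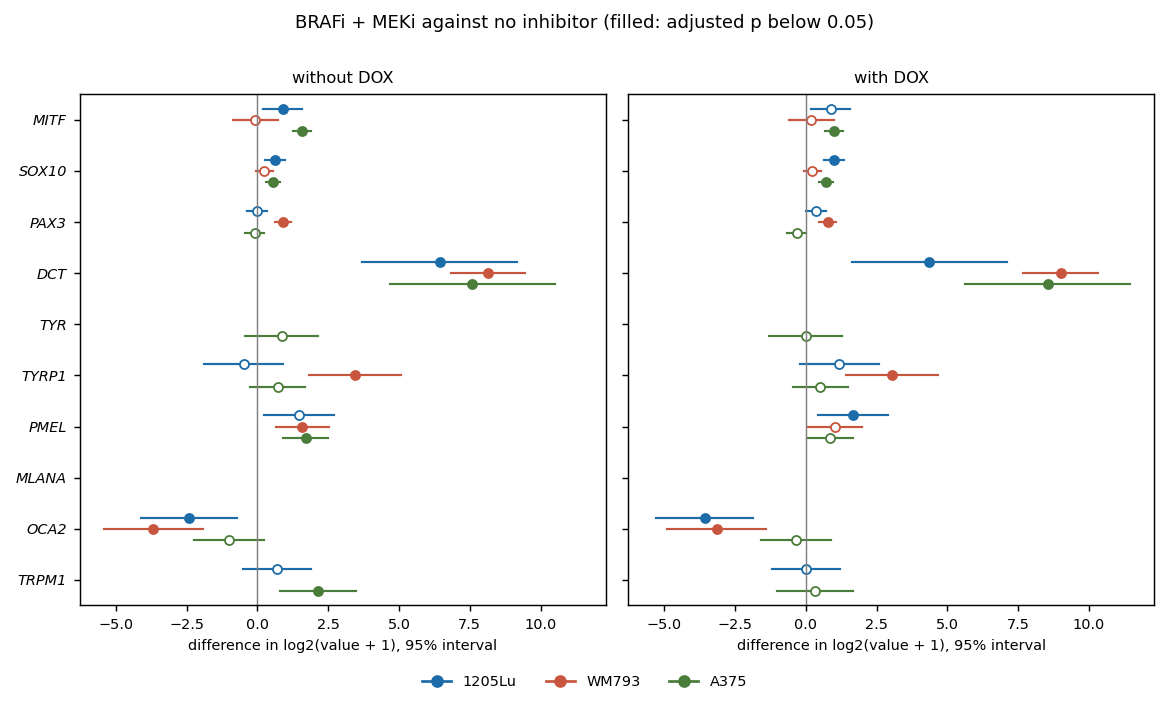
Differences of the members between BRAFi + MEKi and no inhibitor, without DOX (left) and with DOX (right), as log2(value + 1) with 95% intervals from limma, for 1205Lu (blue), WM793 (red) and A375 (green). Filled points had an adjusted p below 0.05. DCT lies at 6.44, 8.16 and 7.58 without DOX, and OCA2 lies below 0 in each line.

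Counted together, 4 of 8 members tested in 1205Lu were called with BRAFi + MEKi against DMSO, 3 higher and 1 lower, where 30.9% of all 22144 genes tested were called. In WM793 5 of 7 were called, 4 higher and 1 lower (37.3% of 22074 genes), and in A375 5 of 9, all higher (39.5% of 24370 genes). With DOX in both groups the counts were 4 of 8 (28.2% of all genes), 4 of 7 (31.7%) and 3 of 9 (31%). The median difference of the members tested without DOX was 0.65, 0.90 and 0.85, beside 0.11, 0.15 and 0.06 over all genes.

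The size of the response was compared between lines with BRAFi + MEKi against DMSO. It differed for 2 of 9 members between 1205Lu and WM793 (14.5% of all 26779 genes tested), PAX3 and TYRP1, and for 3 of 9 between WM793 and A375 (22.8%), MITF, PAX3 and TYRP1. Between 1205Lu and A375 it differed for 0 of 9 (limma), with 0 at an unadjusted p under 0.05 and with 14.7% of all genes called. Over all genes, 7303 of 26779 were at that unadjusted level. Leaving out WM793 BRAFi + MEKi replicate 2 also brought a call for OCA2 in WM793 against A375 (adjusted p = 0.0111), as did array weights (0.0334), and leaving out A375 BRAFi + MEKi replicate 3 one for TRPM1 (adjusted p = 0.0456).

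DOX, and with it NR2F1 overexpression, changed no member past the threshold in any line, with or without inhibitors, in the fit without a replicate block (limma). Among all genes 0.00903%, 0.512% and 0.0492% were called in DMSO in 1205Lu, WM793 and A375, and 0.334%, 0.204% and 1.52% in BRAFi + MEKi. In BRAFi + MEKi of 1205Lu and WM793 all 3 correlations between same-number samples with and without DOX were over 0.1. Replicate numbers were taken to pair these samples, and a replicate block was used. With it 364 genes were called in place of 74 and 127 in place of 45, and 0 members in both lines. In A375 the same-number correlations were 0.0727, 0.0544 and 0.170 in BRAFi + MEKi and 0.0521, 0.0464 and 0.234 in DMSO. Not all were over 0.1, so the samples were not taken as paired. In BRAFi + MEKi each was still higher than with either other number. A block called SOX10 and DCT lower with DOX in A375, in DMSO and in BRAFi + MEKi. Among all genes it there called 79 in place of 12 in DMSO and 601 in place of 370 in BRAFi + MEKi. At an unadjusted p under 0.05 the members numbered 1 in each line in DMSO, SOX10 in 1205Lu, DCT in WM793 and SOX10 in A375. In BRAFi + MEKi they were 2 in 1205Lu (PAX3 and DCT), 0 in WM793 and 3 in A375 (MITF, SOX10 and TRPM1). Over all genes tested, 1516 of 22144, 2189 of 22074 and 1937 of 24370 were at that level in DMSO in 1205Lu, WM793 and A375. In BRAFi + MEKi the numbers over all genes were 2153, 1754 and 2585. With array weights DCT and OCA2 were called lower with DOX in 1205Lu BRAFi + MEKi, and SOX10 and TRPM1 in A375 BRAFi + MEKi.

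DCT had a lower mean with DOX in each of the 6 comparisons. In BRAFi + MEKi it was 537, 116 and 50.9 without DOX against 232, 11.0 and 2.13 with DOX in 1205Lu, groups that overlapped. It was 4742, 3844 and 3331 against 1518, 2467 and 1981 in WM793, which did not overlap, and the ratio of means was 0.501. It was 13703, 12968 and 1247 against 3854, 3003 and 569 in A375, which overlapped through replicate 3. The differences were −2.85 (95% interval −5.59 to −0.10, adjusted p = 0.495), −1.01 (−2.32 to 0.30, adjusted p = 0.726) and −1.69 (−4.61 to 1.23, adjusted p = 0.749). DCT was lower with DOX in 3 of 3 same-number pairs in 1205Lu and in WM793 (adjusted p = 0.327 and 0.524, limma with a replicate block). In A375 BRAFi + MEKi DCT was also lower in 3 of 3 same-number pairs. A block called DCT lower there (adjusted p = 0.0364, limma) and in A375 DMSO. The same-number correlations in A375 were not all over 0.1. In 1205Lu the difference passed without BRAFi + MEKi + DOX replicate 1, with an adjusted p of 0.0264, as did that of OCA2, with 0.0485. Replicate 1 of 1205Lu also stood apart in DUSP6, at 75.8 in BRAFi + MEKi and 74.6 with DOX against 275 to 710.1 in the other 1205Lu libraries with inhibitors, and whether this bears on DCT was not tested. In DMSO the differences of DCT were −0.77, −1.85 and −2.65, with adjusted p-values of 0.958, 0.288 and 0.658.

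SOX10 likewise had a lower mean with DOX in 6 of 6 comparisons. In DMSO + DOX it was 5684, 6094 and 6028 in 1205Lu, below all DMSO libraries (−0.62, 95% interval −0.97 to −0.26, adjusted p = 0.584). In A375 it was 10594, 12670.2 and 10433, again below all DMSO libraries (−0.50, −0.74 to −0.25, adjusted p = 0.214), and in WM793 14487, 11574 and 12605, which overlapped them (−0.18, adjusted p = 0.725). In BRAFi + MEKi + DOX it was 9441, 13837 and 12497 in 1205Lu, 13869, 16955 and 14616 in WM793 and 18802, 19845 and 16086 in A375. Of these, the A375 libraries did not overlap those without DOX (−0.36, −0.60 to −0.11, adjusted p = 0.199), and the differences in 1205Lu and WM793 were −0.24 and −0.19 with overlap of the groups. Replicate number was taken to pair the samples here. SOX10 was lower with DOX in 3 of 3 pairs of each of these lines (adjusted p = 0.535 and 0.677, limma with a replicate block). In A375 BRAFi + MEKi SOX10 was also lower in 3 of 3 same-number pairs. A block called SOX10 lower there (adjusted p = 0.036, limma) and in A375 DMSO. The same-number correlations in A375 were not all over 0.1.

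MITF showed no common direction with DOX. In A375 BRAFi + MEKi it was 2249, 2007 and 1994 with DOX against 2665, 2391 and 2785 without, groups that did not overlap (−0.33, adjusted p = 0.457), while in A375 DMSO the difference was 0.26. In 1205Lu it was 0.46 in DMSO and 0.44 in BRAFi + MEKi, and in WM793 −0.14 and 0.14. PAX3 in 1205Lu BRAFi + MEKi was 1482, 1492 and 1359 with DOX against 1024, 998 and 1021 without (0.51, adjusted p = 0.247), higher in 3 of 3 pairs, and did not overlap. In WM793 it was lower with DOX in 3 of 3 pairs (−0.18, adjusted p = 0.724 with a replicate block). TRPM1 in A375 BRAFi + MEKi was lower with DOX by a difference of −1.83 (adjusted p = 0.256), which passed without BRAFi + MEKi replicate 3 (adjusted p = 0.0262). PMEL in DMSO + DOX was 37.9, 20.8 and 20.3 in WM793 and 49.0, 38.4 and 42.9 in A375, above all DMSO libraries in both lines (0.65 and 0.57, adjusted p = 0.685 and 0.737).

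**Figure D3:**
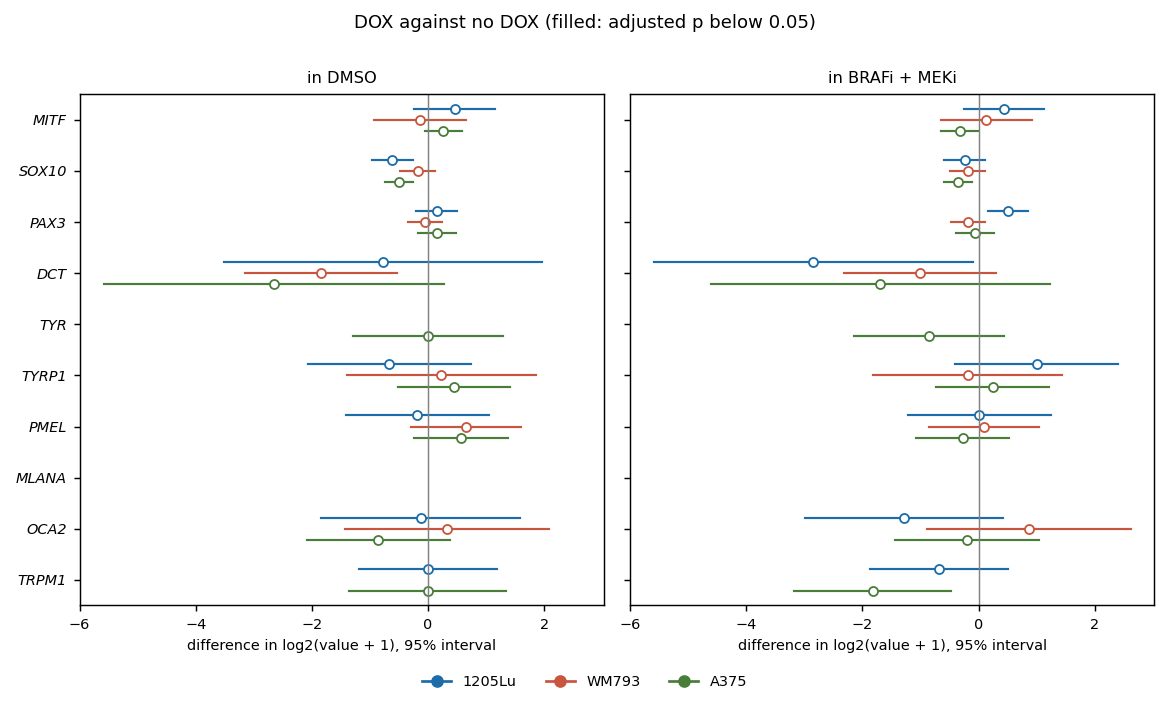
Differences of the members between DOX and no DOX, in DMSO (left) and in BRAFi + MEKi (right), as log2(value + 1) with 95% intervals from limma, colored by line. Open points had an adjusted p of 0.05 or more, and no point is filled. SOX10 lies between −0.62 and −0.18 and DCT between −2.85 and −0.77 over the 6 comparisons.

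Whether the DOX difference depended on the inhibitors was tested as an interaction within each line. It was called for no member, with 0 members at an unadjusted p under 0.05 in 1205Lu and WM793 and 1 in A375, MITF (−0.59, 95% interval −1.04 to −0.13, adjusted p = 0.491), and for 0%, 0% and 0.46% of all genes. Over all genes tested, 1267 of 22144, 1262 of 22074 and 1766 of 24370 were at that unadjusted level. The DOX difference in BRAFi + MEKi was called different between lines for no member, where 0.881% of all genes were called between WM793 and A375, 0.138% between WM793 and 1205Lu and 0.179% between A375 and 1205Lu (limma). At an unadjusted p under 0.05 there was 1 member in each pair, PAX3 in both pairs with 1205Lu and TRPM1 in the other, and with array weights PAX3 was called in 1205Lu against WM793.

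Genes outside the 10 members were read by lists. Of 40 genes known to be activated by MITF, 38 were tested in each of 1205Lu and WM793 and 39 in A375. With BRAFi + MEKi 14, 17 and 19 of them rose in these lines and 4, 5 and 5 fell. Their median difference was 0.35, 0.37 and 0.51, beside 0.11, 0.15 and 0.06 over all genes, of which 16.5%, 20.4% and 20.5% rose and 14.4%, 16.9% and 19% fell. GPM6B, a membrane glycoprotein gene, rose by 2.60 in 1205Lu and 3.83 in WM793. CAPN3, a calpain protease gene, rose by 2.56, 3.45 and 3.66 in the 3 lines, and HPGD, which breaks down prostaglandins, by 4.41 in A375. With DOX against BRAFi + MEKi 0 of these genes were called in any line (limma), with 6, 4 and 9 at an unadjusted p under 0.05. Over all genes tested, 2153 of 22144, 1754 of 22074 and 2585 of 24370 were at that level. With a replicate block BCL2A1, an anti-apoptotic gene of the BCL2 family, was lower in 1205Lu (−0.86, adjusted p = 0.0301). With the inhibitors it fell by 1.12 in 1205Lu and rose by 1.71 in A375. In DMSO the cell cycle gene CABLES1 was higher in WM793 (0.97, adjusted p = 0.0054).

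The list of melanosome and pigment genes outside the members was mixed. Of 18 genes, 15, 17 and 18 were tested, and 3, 4 and 6 rose and 5, 7 and 2 fell in 1205Lu, WM793 and A375. The shares over all genes, for this list and those that follow, were the 16.5%, 20.4% and 20.5% higher and 14.4%, 16.9% and 19% lower given above. MLPH, which links melanosomes to myosin, fell by 2.32 in 1205Lu and 2.76 in A375, and MREG, a melanosome transport gene, fell by 1.80 in 1205Lu and 2.24 in WM793. LYST, a lysosome trafficking gene, rose in all 3 lines, by 1.63, 1.94 and 1.97, and with a replicate block was lower with DOX in 1205Lu BRAFi + MEKi (−0.74, adjusted p = 0.011). RAB38, which carries tyrosinase family enzymes to melanosomes, rose by 2.12 in 1205Lu, and GPNMB, a melanosomal glycoprotein gene, by 1.67 in WM793 and 1.5 in A375. GPR143, the ocular albinism receptor, fell by 2.48 in WM793. Of the 3 paralogs of MITF, TFE3 rose by 0.68 in 1205Lu and 1.13 in WM793 and TFEB by 1.05 in WM793, and none was called in A375.

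Of 8 SOX10 targets, 3 rose in each line and 1, 3 and 1 fell, of 8, 7 and 7 tested. ERBB3, a receptor tyrosine kinase gene, rose by 2.66 in 1205Lu and 1.04 in A375 and fell by 0.42 in WM793 (adjusted p = 0.0118, limma). With DOX in both groups it again fell in WM793, by a difference of −0.58 (adjusted p = 0.00178). Its response differed between 1205Lu and WM793 (3.08, adjusted p = 2.4e-06) and between WM793 and A375 (−1.46, adjusted p = 0.00676). GJB1, a gap junction gene, fell in each line, by 4.33 in A375. The differences in 1205Lu and WM793 were −6.63 and −4.09, with no ratio of means given, so their size depends on the pseudocount. Members of the list therefore moved in both directions with the inhibitors.

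Among 19 regulators of MITF, SOX10 and PAX3, 4, 3 and 2 rose and 3, 6 and 5 fell of 17, 17 and 18 tested. TFAP2A, a neural crest transcription factor gene, rose by 1.75 in 1205Lu, 2.20 in WM793 and 0.64 in A375, ZEB2, a factor of the differentiated state, by 1.53, 2.03 and 2.36, and EDNRB, the endothelin receptor of melanoblasts, by 2.88 in 1205Lu. KITLG, the ligand of KIT, fell by 2.27 in 1205Lu and rose by 1.14 in WM793 (adjusted p = 0.019). TWIST1 fell by 2.68 in WM793, LEF1 by 1.64, 1.00 and 2.30 in 1205Lu, WM793 and A375, and BHLHE40 by 1.55 in WM793 and 2.21 in A375. In 1205Lu BRAFi + MEKi EDNRB fell by 1.34 with DOX (adjusted p = 0.031).

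Markers of dedifferentiated melanoma moved in both directions in each line, and the difference between lines was not tested for the list. Of 14 tested in each line, 1 rose and 6 fell in 1205Lu, 8 rose and 2 fell in WM793 and 1 rose and 10 fell in A375, with medians of −0.52, 0.64 and −1.85. NT5E, an ectonucleotidase gene, fell by 3.85 in 1205Lu and 3.81 in A375, and FOSL1, a subunit of AP-1, by 2.77 and 5.36. NGFR, the nerve growth factor receptor of neural crest-like cells, rose by 3.61 in WM793, and JUN, another subunit of AP-1, by 4.0 in WM793 and 4.25 in A375. CCN1 and WNT5A rose by 3.18 and 1.21 in WM793, and fell by 1.88 and 0.49 in A375. In A375 BRAFi + MEKi these genes rose by 1.71 and 0.70 with DOX (adjusted p = 0.00031 and 0.017). With a replicate block CCN1 was higher (1.32, adjusted p = 0.0198) and NGFR and NT5E lower (−2.17 and −0.55, adjusted p = 0.0348 and 0.0427) with DOX in 1205Lu BRAFi + MEKi, and TNC, a matrix protein gene, was higher in WM793 (0.81, adjusted p = 0.0294). Of 8 genes of MAPK output, 6, 8 and 7 fell and 0 rose. ETV4, an ETS factor gene switched on by ERK, fell by 5.99 in 1205Lu, fell by 3.34 in WM793 and fell by 7.13 in A375.

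**Figure D4:**
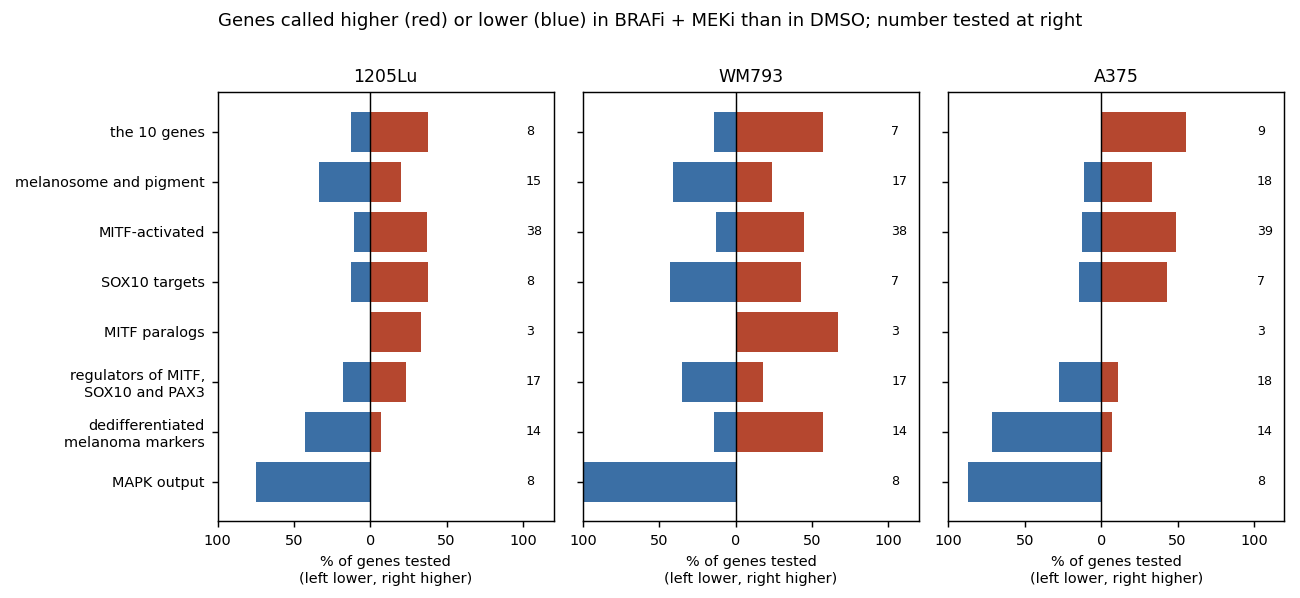
Share of the genes tested in each list that was called higher (right, red) or lower (left, blue) in BRAFi + MEKi than in DMSO, by line, with the number tested at the right of each panel. Of the MITF-activated genes 14, 17 and 19 were higher, and the dedifferentiated melanoma markers were lower in 6 and 10 cases in 1205Lu and A375 and higher in 8 in WM793.

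Markers of other cell types were read in the same libraries. Of 6 keratinocyte genes KRT1 was at 0 in all groups, and KRT5 was at 0 in all groups of 1205Lu and WM793. The summed level of the 6 was 749 to 969 in A375 DMSO, 629 to 811 in A375 BRAFi + MEKi, 444 to 572 in A375 DMSO + DOX and 642 to 996 in A375 BRAFi + MEKi + DOX, and 3 of the 4 tested rose in the last pair (KRT5, TP63 and KRT14). Of 5 blood cell genes PTPRC was higher in A375 with BRAFi + MEKi (4.09, adjusted p = 5.7e-05) and CD14 lower (−2.04, adjusted p = 0.0187), while the sum was 91.9 to 135 in DMSO and 58.0 to 135 with BRAFi + MEKi. With DOX in both groups PTPRC was again higher in A375 (1.90, adjusted p = 0.0189), with sums of 59.9 to 84.5 and 42.6 to 44.7. Of 4 endothelial genes VWF was higher in 1205Lu with BRAFi + MEKi (2.63, adjusted p = 0.0047), with sums of 10.0 to 22.2 and 42.8 to 80.6, and again with DOX (2.66, adjusted p = 0.00501). In A375 CDH5 was lower with BRAFi + MEKi (−1.73, adjusted p = 0.0449), with sums of 55.5 to 91.8 and 64.2 to 93.4. With DOX in both groups of A375, VWF (2.07) and TEK (1.84) were higher and PECAM1 (−2.91) and CDH5 (−1.89) lower with inhibitors, at an adjusted p of 0.00092 to 0.0374 (limma), with sums of 33.1 to 84.5 and 96.3 to 199. The part of these genes in the results for the members was not tested.

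Likeness of pattern was measured as Pearson's r of log2(value + 1) over the 12 group means, among 19199 genes. The points share lines and thus are not independent. The genes most like MITF were EAF1, PCDHB9, RIC1, CFI and ADGRB3, with r of 0.984 to 0.988. Those most like SOX10 were ENSG00000279456, HDAC5, WDR24, PRRT1 and EGFL8, with r of 0.938 to 0.961. Those most like DCT, added after its values were seen, were SEMA3C, ZNF608, GLMP, DMPK and MOAP1, with r of 0.957 to 0.970. Among the members, DCT and SOX10 had an r of 0.835, DCT and PMEL of 0.836, and MITF and PAX3 of −0.790.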

How the data were processed

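RNA-seq of 36 cultures, 3 per group, was analysed. Per the labels and the study's methods, the authors used STAR 2.7.0 for alignment (GRCh38, GENCODE 35), RSEM 1.2.28 for gene-level estimates and DESeq2 1.28.1 to normalize these over all libraries. The deposited values are therefore a normalized signal per gene, not raw counts, so count models were not used, and low values were not whole multiples of a common step. Values were tested as log2(value + 1) with limma 3.58.1 (R 4.3.3, empirical Bayes with a mean trend), in a fit of the 12 libraries of a line, or of all 36 for comparisons between lines. Genes with a group mean of at least 1 were kept, and p-values were adjusted (Benjamini-Hochberg) over all genes tested at a threshold of 0.05. Fold changes on this scale understate those of low genes. The replicates came from separate experiments per the study. Deviations of same-number samples from their group means correlated at over 0.1 in all 3 pairs for DOX in BRAFi + MEKi in 1205Lu (0.109 to 0.274) and WM793 (0.105 to 0.251), so the numbers were taken, from the data, to pair the samples there, and in no other comparison. P-values measure the spread between the 3 libraries of a group, pooled over all groups in the fit. This spread was moderated towards the mean trend over all genes. Python 3.11.15 with pandas 2.3.3 and matplotlib 3.10.9 was used besides. The fit was tested on simulated data.

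Gene positions and overlaps came from GENCODE 44 and promoter windows from RefSeq. The members and lists were chosen with earlier results of these data known. All 10 members are named. From each other list, up to 3 called genes per line and comparison are named, those with the largest change among genes whose libraries did not overlap between groups. A few of these are not reported here. Besides these, NR2F1, DUSP6, overlapping genes, pattern neighbors, markers of other cell types and genes called with a replicate block are named, the last chosen after their values were seen. Alternatives tried were the pseudocount at 0.1, the filter left off, libraries rescaled to the same total, array weights, no trend, a replicate block, a fit of the groups compared alone, and leaving out each library in turn.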

Additional observations from a re-analysis of the deposited data

Results flagged for a closer look

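In 5 cases the response of a member to BRAFi + MEKi differed between lines by a test of the difference (limma on 36 libraries, log2(value + 1) scale). PAX3 differed for 1205Lu against WM793 (−0.905, adjusted p = 0.0026) and for WM793 against A375 (0.998, adjusted p = 0.00057), and was higher with inhibitors in 3 of 3 WM793 libraries than in any DMSO library of that line. TYRP1 differed for 1205Lu against WM793 (−3.94, adjusted p = 0.0026) and for WM793 against A375 (2.74, adjusted p = 0.026), at levels of at most 26.8. MITF differed for WM793 against A375 (−1.64, adjusted p = 0.0077), with 3 of 3 A375 libraries above all DMSO libraries of that line and 3 of 3 WM793 libraries within the DMSO range. Outliers were not looked for, since each group had 3 samples.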

How the results depend on the processing

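The number of members called is given here beside the number in the report. For BRAFi + MEKi against DMSO in 1205Lu, 4 members were called, 2 with a pseudocount of 0.1, 2 with no trend, and 1 to 4 without a single library. For BRAFi + MEKi + DOX against DMSO + DOX in 1205Lu the 4 calls were 2 to 4 without a single library. For BRAFi + MEKi + DOX against BRAFi + MEKi, 0 members were called in 1205Lu and in A375, against 2 each with array weights, and 0 to 2 in 1205Lu and 0 to 1 in A375 without a single library. The difference of this effect between 1205Lu and WM793 was called for 0 members, and for 1 with array weights. No member changed direction among those called. The replicate numbers gave a correlation over 0.1 in 7, 5 and 3 of 12 same-number pairs in 1205Lu, WM793 and A375, and in 11, 10 and 9 of these 12 pairs the correlation was higher than with either other number, a hint from the data and not the design. Outside the 2 comparisons taken as paired, the labels give the samples only a shared number, and whether they share an experiment was not tested. In those 2 a replicate block changed no call of a member. With a replicate block 2 members, SOX10 and DCT, were called in A375 for DOX in DMSO and 2, the same pair, for DOX in BRAFi + MEKi, against 0 without it, and MITF was called in 1205Lu for BRAFi + MEKi with DOX in both groups (adjusted p = 0.0319). The cause of these shifts was not tested. No block was fitted for DMSO between lines. Counts of members called for the other comparisons stayed within 1.5 times. WM793 DMSO replicate 1, at about 6580536 reads, limits the low genes of that group most.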
